A study of Mus musculus with 7 samples.

Results

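The insulin-like growth factor (IGF) genes described here were 10 named genes: the ligands Igf1 and Igf2, the receptors Igf1r and Igf2r, and the binding proteins Igfbp2, Igfbp3, Igfbp4, Igfbp5, Igfbp6 and Igfbp7. A gene was measured where at least 1 probe set carried its symbol and no other, and the brightest such probe set, by its mean over the 7 arrays, was used. That gave 8 of the 10 genes, among 17096 genes measured in all. Igf2r and Igfbp7 had no such probe set and were not analysed here. Levels were log2 intensities of Affymetrix probe sets in sorted mouse mammary cells, 7 arrays in all. Adult luminal cells (2 arrays) were YFP+ cells of K8CREERT2/RosaYFP mice, and adult basal cells (2 arrays) were YFP+ cells of K5CREERT2/RosaYFP mice, both taken 8 weeks after tamoxifen. In these mice a keratin 8 or keratin 5 promoter drives a tamoxifen-inducible Cre that switches on YFP, so each group holds cells in which that promoter was active at labelling and their descendants. Embryonic cells (3 arrays of 2000, 2000 and 813 cells) were CD49fHi Lgr5Hi cells of Lgr5-IRES-GFP female embryos at embryonic day 14, each replicate a pool of the females of 1 litter. The adult arrays are marked as analysed again, their age is not given, and no label ties the adult replicates to different animals. The p-values therefore reflect array-to-array spread, which may be technical.

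IGF1 and IGF2 are secreted peptides that bind the receptor tyrosine kinase IGF1R, which passes the signal to insulin receptor substrates, PI3 kinase and AKT. IGF2R has no kinase activity and carries IGF2 to lysosomes. The IGF binding proteins hold the ligands outside the cell, extend their life and limit or deliver them to the receptor, and proteases such as PAPP-A release the ligand by cutting them. In the mammary gland IGF1 is known as a mediator of growth hormone in duct growth, and IGFBP5 for its rise in involution.

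Luminal and basal arrays held the genes of their labels: 9 of 9 measured basal markers were higher in basal cells and 6 of 10 luminal markers in luminal cells. By the same rule, given below, 3.24% of all genes were higher in basal and 3.57% in luminal cells. Krt8 itself, at 11.05 and 11.03 in luminal and 10.69 and 10.59 in basal arrays, did not pass the test. Nor did Krt18 (0.68, luminal minus basal), Epcam (0.39) and Gata3 (-0.05), and for Gata3 the arrays of the lineages overlapped. Lgr5, whose reporter was used to sort the embryonic cells, read 7.18, 7.34 and 8.53 in the embryonic and 9.79 and 10.25 in the basal arrays. Embryonic and adult columns were not shown to be on a common scale, so these levels cannot be ranked against each other. A background level of 6.05 was taken from 73 genes restricted to other organs; it is a cautious level, since 2 of those genes, Tph1 and Fgb, changed between the lineages. Array medians ran from 5.05 to 5.08, and having so few arrays limits how precise any value is.

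All 8 measured IGF genes had lower levels in both luminal than in both basal arrays. A gene is called changed where it differed at least 2-fold and its limma p, adjusted over all genes by Benjamini-Hochberg, stayed under 0.05. Of the 8 genes 7 changed, each higher in basal cells, where 6.81% of all genes changed, 3.24% with the higher level in basal and 3.57% in luminal cells. Lineages did not overlap for 59.2% of all genes, so the lack of overlap says little of any member. The median difference, luminal minus basal, was -1.30 over the 8 genes and 0.02 over all genes. Because the members were chosen with earlier results of these data known, neither the count nor the median tests them as a set. With 2 arrays against 2 an exact permutation test of a single gene cannot go below p = 0.333, so the calls rest on spread borrowed across genes.

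The members differed in how far the lineages stood apart relative to the replicates. For Igfbp3, Igf1r and Igf2 the gap between the nearest luminal and basal arrays was larger than the larger of the 2 differences between replicates, which held for 28.5% of all genes. For Igf1, Igfbp2, Igfbp4, Igfbp5 and Igfbp6 it was smaller. Without luminal replicate 1 only Igfbp3 remained called, and without luminal replicate 2 Igf2, Igf1r and Igfbp3 did. Without basal replicate 2 Igf2, Igf1r, Igfbp3 and Igfbp4 did, and without basal replicate 1 all 7 did. Each of those fits left 1 array in a lineage, whose spread was taken from the other lineage.

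**Figure D1:**
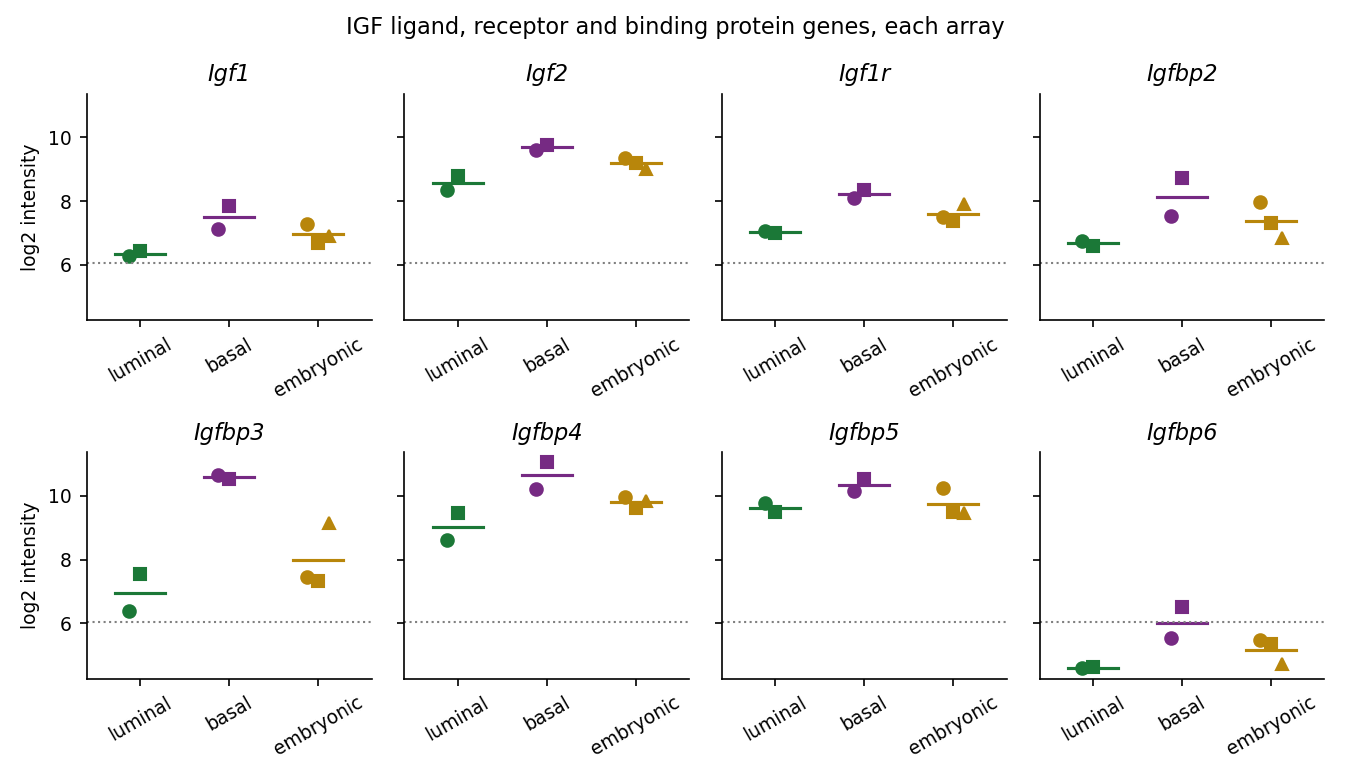
Log2 intensity of the 8 measured IGF genes in each of the 7 arrays. Circles, squares and triangles are replicates 1, 2 and 3, bars are group means, and the dotted line is the background level of 6.05; both basal arrays lie above both luminal arrays in every panel, and luminal Igfbp6 lies below the background level.

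Promoter sequences of 3 genes are shown: Igfbp3, with the largest difference, Igf1r, with the smallest replicate spread, and Igfbp4, with the most probe sets (6). They are RefSeq windows on GRCm38.p6 from 250 bases before to 50 after the gene's start, 5′ to 3′ on the gene's strand, and run chr11:7213874-7214173 (- strand) for Igfbp3, chr7:67952007-67952306 (+ strand) for Igf1r and chr11:99040994-99041293 (+ strand) for Igfbp4. Capitals mark TATANA, the letters of a TATA box, or GGGCGG, those of a GC box, on either strand; both motifs were picked with the sequences in view.
Igfbp3: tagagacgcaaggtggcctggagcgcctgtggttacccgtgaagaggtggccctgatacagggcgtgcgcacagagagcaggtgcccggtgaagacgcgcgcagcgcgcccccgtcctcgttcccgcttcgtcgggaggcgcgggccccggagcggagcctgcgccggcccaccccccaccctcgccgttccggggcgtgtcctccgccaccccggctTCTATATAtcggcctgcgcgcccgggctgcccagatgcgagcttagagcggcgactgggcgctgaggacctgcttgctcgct
Igf1r: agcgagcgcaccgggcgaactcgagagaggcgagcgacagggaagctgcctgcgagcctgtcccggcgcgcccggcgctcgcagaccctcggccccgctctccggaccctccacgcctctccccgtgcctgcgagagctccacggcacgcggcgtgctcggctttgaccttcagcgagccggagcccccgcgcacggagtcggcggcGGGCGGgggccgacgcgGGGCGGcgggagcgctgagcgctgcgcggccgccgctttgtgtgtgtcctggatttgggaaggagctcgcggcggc
Igfbp4: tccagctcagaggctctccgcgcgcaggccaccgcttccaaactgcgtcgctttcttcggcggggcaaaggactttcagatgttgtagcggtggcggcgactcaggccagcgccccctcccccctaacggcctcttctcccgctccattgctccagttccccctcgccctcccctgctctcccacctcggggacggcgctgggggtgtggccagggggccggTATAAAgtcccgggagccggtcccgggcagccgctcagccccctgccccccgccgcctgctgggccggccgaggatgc
Igfbp3 held overlapping matches to the first motif starting 32 and 30 bases before the gene's start, and Igfbp4 held 1 starting 28 bases before it. Igf1r held 2 GC boxes and no match to the first motif. The first motif was in 24.7% and the GC box in 35.7% of 32851 mouse promoter windows of this length. The 10 named genes, all of which matched, had 14 windows, of which 3 held the first motif and 6 the GC box. By gene, the first motif was in a window of 3 and the GC box in one of 5, among them the unmeasured Igf2r and Igfbp7. Neither motif was in all of the genes higher in basal cells.

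Both ligand genes were higher in basal cells. Igf1 read 6.27 and 6.43 in luminal and 7.13 and 7.85 in basal arrays. The luminal arrays sat just above the background level, and basal replicate 2 stood apart from basal replicate 1 by 0.72, slightly more than the gap of 0.70 between the lineages. The difference, luminal minus basal, was -1.14 ± 0.25 (SE, n = 2 and 2; limma adjusted p = 0.0320), or 2.21-fold. The call depended on the probe set: the 3 other Igf1 probe sets lay below the background level in every adult array, and averaging all 4 gave a difference of -0.53 (adjusted p = 0.0446; 0.00371 to 0.171 over the alternatives), which is under 2-fold.

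Igf2, an imprinted growth factor gene best known for its part in fetal growth, read 8.36 and 8.80 in luminal and 9.60 and 9.77 in basal arrays. The basal arrays lay within 0.17 of each other and the lineages were 0.80 apart at their nearest. The difference was -1.10 ± 0.18 (limma adjusted p = 0.0157), or 2.15-fold. A second Igf2 probe set read 7.76 and 7.97 in luminal and 9.01 and 9.18 in basal arrays, a difference of -1.23 ± 0.14 that also passed among all probe sets (limma adjusted p = 0.0102), of which 4.79% were called. Without luminal replicate 1 the Igf2 difference was -0.89 and did not pass (limma adjusted p = 0.0827; 0.00599 to 0.0827 over the alternatives).

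Igf1r, the receptor through which both ligands signal, read 7.06 and 6.996 in luminal and 8.10 and 8.35 in basal arrays. Replicates of a lineage lay within 0.25 of each other, against a gap of 1.04 between the lineages. The difference was -1.20 ± 0.14 (SE, n = 2 and 2; limma adjusted p = 0.00699), or 2.29-fold. All 4 Igf1r probe sets passed in the fit over probe sets, with differences from -1.61 to -1.18 (the brightest at -1.20). Without luminal replicate 1 the difference of -1.23 just missed the threshold (limma adjusted p = 0.0537; 0.00264 to 0.0537 over the alternatives).

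**Figure D2:**
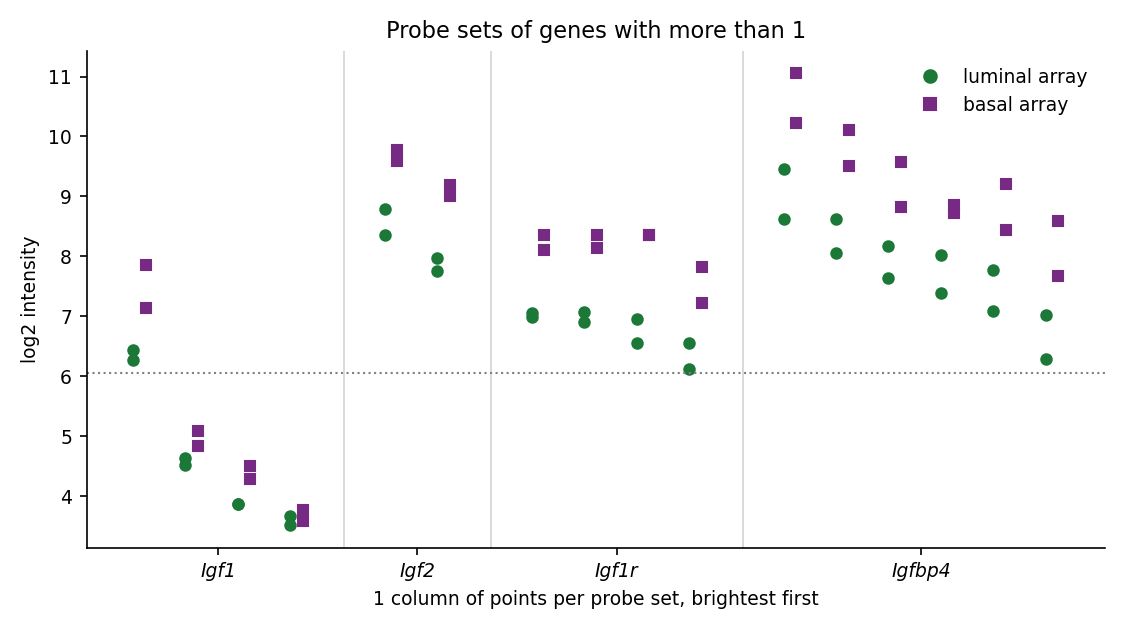
Log2 intensity of each probe set of the 4 IGF genes that have more than 1, in luminal (circles) and basal (squares) arrays, ordered from the brightest within a gene. The dotted line is the background level of 6.05; all probe sets of Igf2, Igf1r and Igfbp4 have both basal arrays above both luminal arrays, and 3 of the 4 Igf1 probe sets lie below the dotted line.

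Among the binding proteins Igfbp3, the main carrier of IGFs in the circulation, had the largest difference. It read 6.39 and 7.54 in luminal and 10.66 and 10.52 in basal arrays. The basal arrays differed by 0.14, the luminal arrays by 1.15, and the lineages were 2.98 apart at their nearest. The difference was -3.62 ± 0.36 (SE, n = 2 and 2; limma adjusted p = 0.00489), or 12.3-fold, and it ranked 8th by size of all genes. It passed with each array left out in turn, at -4.20 to -3.05, the smaller value without luminal replicate 1. On the deposited linear scale luminal replicate 1 read 84.0 and luminal replicate 2 read 186, against 1615 and 1470 in the basal arrays.

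Igfbp4, a binding protein that holds ligand from the receptor until PAPP-A cleaves it, read 8.62 and 9.45 in luminal and 10.23 and 11.05 in basal arrays. Replicate 2 was higher than replicate 1 by 0.83 in both lineages, more than the gap of 0.77 between them. The difference was -1.60 ± 0.37 (limma adjusted p = 0.0376), or 3.04-fold. The 5 other Igfbp4 probe sets had differences from -1.48 to -1.08, and 2 of the 6 passed in the fit over all probe sets. The probe set used here did not pass there (limma adjusted p = 0.0546).

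Igfbp2 and Igfbp5 are next to each other on mouse chromosome 1 in the RefSeq annotation of GRCm38.p6. Replicates of a lineage differed by up to 1.17 for Igfbp2 and 0.39 for Igfbp5. Igfbp2 read 6.75 and 6.59 in luminal and 7.54 and 8.71 in basal arrays. The basal arrays differed by 1.17, more than the gap of 0.80 between the lineages. The difference was -1.46 ± 0.37 (limma adjusted p = 0.0488), or 2.75-fold, and it was called in 7 of 12 alternatives (limma adjusted p = 0.00167 to 0.183). Without basal replicate 2 it was -0.87. Igfbp5 read 9.77 and 9.49 in luminal and 10.14 and 10.52 in basal arrays, with a nearest gap of 0.37. Its difference of -0.70 ± 0.18, or 1.63-fold, did not pass (limma adjusted p = 0.0534; 0.0239 to 0.226 over 12 alternatives). In 5 of those the adjusted p was under 0.05, and there only the 2-fold minimum was missed.

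Igfbp6, a binding protein that prefers IGF2, read 4.59 and 4.63 in luminal and 5.53 and 6.51 in basal arrays. Only basal replicate 2 lay above the background level. The difference of -1.41 ± 0.31 passed (limma adjusted p = 0.0343), but with luminal levels below background its size is not exact and no fold is given. It did not pass without luminal replicate 1, without luminal replicate 2 or without basal replicate 2 (-0.92), nor in the fit over all 7 arrays (limma adjusted p = 0.0552; 0.00171 to 0.163 over the alternatives).

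**Figure D3:**
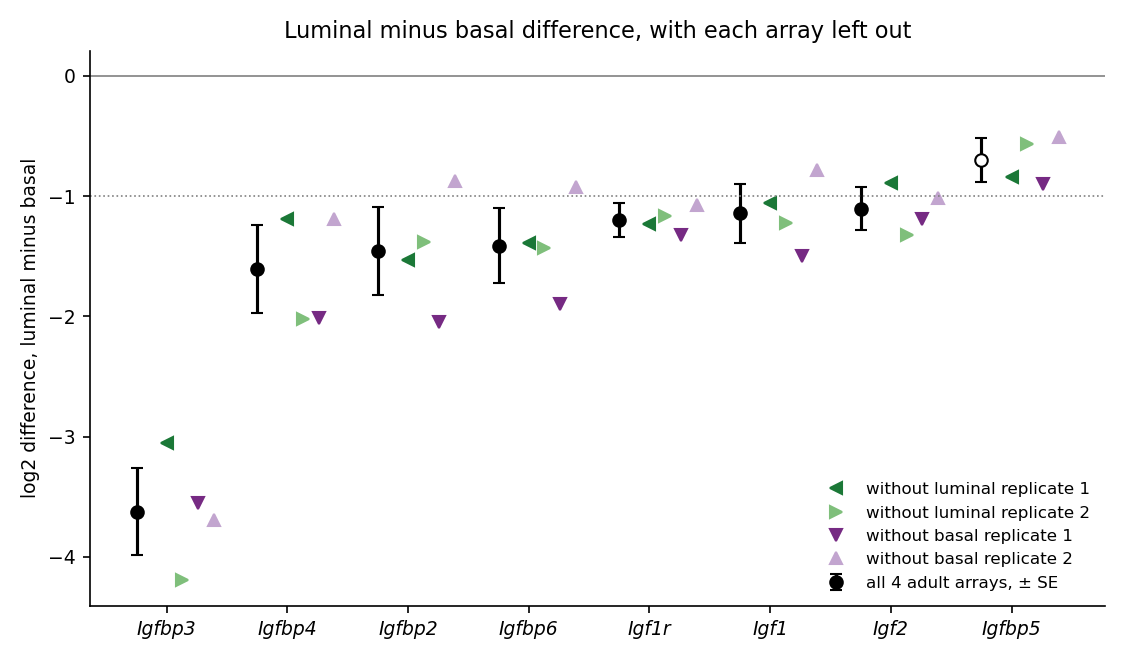
Log2 difference, luminal minus basal, of the 8 measured IGF genes. Black circles are all 4 adult arrays with the SE (filled where the gene changed, open where it did not), triangles leave out 1 array each, the dotted line is a 2-fold difference, and Igfbp3 stays at -4.20 to -3.05 while Igfbp2, Igfbp6 and Igf1 cross the dotted line without basal replicate 2.

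By their medians, fibroblast and endothelial markers were also higher in basal arrays. Of 14 measured fibroblast markers 4 were higher in basal cells, with a list median of -1.07. They were Postn (-2.39, luminal minus basal), Col5a1 (-1.76), Col6a1 (-1.68) and Mfap5 (-1.06). Of 12 endothelial markers 1 was (Esam), with a list median of -1.21. Mfap5 and Esam had means below the background level in both lineages. The called shares were 28.6% and 8.33%, where 6.81% of all genes were called, so the endothelial count is no result about that list. At an unadjusted limma p under 0.05 the fibroblast and endothelial counts were 9 of 14 and 11 of 12, against 31.6% of all genes. The fibroblast list's summed level, as log2, was 11.71 and 12.40 in luminal and 13.05 and 13.33 in basal arrays, and the endothelial list's was 8.88 and 9.66 against 10.12 and 10.84. In at least 1 adult lineage 11 of 14 fibroblast and 8 of 12 endothelial markers lay above the background level. The collagen gene Col1a1 read 8.58 and 10.41 in luminal and 10.81 and 10.93 in basal arrays. Pecam1 read 6.09 and 7.29 in luminal and 7.95 and 8.69 in basal arrays. Neither passed (limma adjusted p = 0.157 and 0.0561). The fibroblast marker Dcn was level, at 10.43 and 9.67 in luminal and 9.79 and 10.21 in basal arrays (0.05). Pdgfra read 3.47 to 3.80 and so lay below background. Medians of pericyte (-0.54), adipocyte (-0.30), leukocyte (-0.12) and erythroid (0.40) markers were smaller. No member of those lists changed in limma, with 4 of 4, 2 of 5, 1 of 9 and 1 of 3 at an unadjusted p under 0.05. Of the genes so counted, the pericyte marker Notch3 (0.69) and the erythroid marker Alas2 (0.74) were higher in luminal cells and the others in basal cells. Of the leukocyte markers Cd74 read 6.14 and 7.25 in luminal and 7.26 and 7.71 in basal arrays, Lyz2 read 3.92 and 6.23 against 6.32 and 7.05, and the other 7 lay below background in both lineages. The part of these cells in the IGF differences was not tested, and in bulk samples fewer cells of a type and less RNA per cell cannot be told apart.

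Replicates of a lineage differed in the same markers. In replicate 2, set against replicate 1, the endothelial median was higher by 0.65 in luminal and 0.78 in basal arrays, and the fibroblast median by 0.54 and 0.32. Igfbp4 was higher in replicate 2 of both lineages. Igf1 (0.72), Igfbp2 (1.17) and Igfbp6 (0.98) were higher in basal replicate 2, with smaller differences of 0.16, -0.15 and 0.04 between the luminal arrays. Igfbp3 was higher by 1.15 in luminal replicate 2 and lower by 0.14 in basal replicate 2. Basal markers were higher in luminal replicate 2 by a median of 0.43 but parted there, from 1.77 for Mylk to -0.36 for Trp63. Krt14 (-0.13) and Oxtr (-0.26) were lower there too. Igf1r differed by -0.07 between luminal and 0.25 between basal arrays, where the medians of all genes were -0.01 and 0.03.

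**Figure D4:**
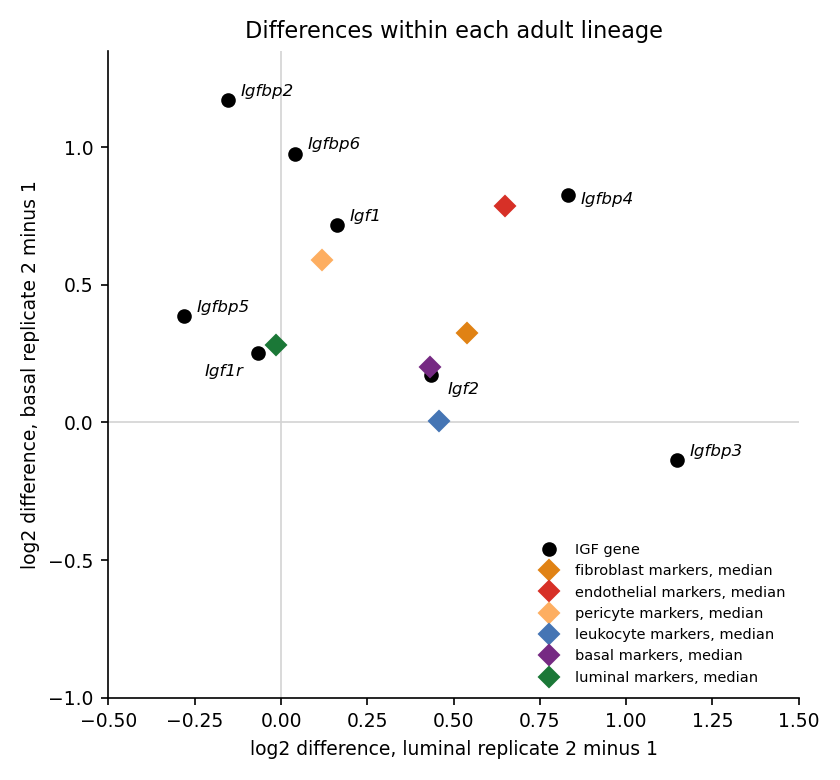
Log2 difference between replicates 2 and 1 in luminal (horizontal axis) and basal (vertical axis) arrays, for the 8 measured IGF genes (black circles) and the medians of marker lists (diamonds). Igfbp4 (0.83 and 0.83) lies nearest to the endothelial median (0.65 and 0.78), and Igfbp3 stands apart at 1.15 and -0.14.

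Other genes of the pathway were taken from a list. Of 49 measured genes of 59 listed, 4 were higher in basal and 1 in luminal cells, with a median difference of -0.01. That is 10.2%, near the 6.81% of all genes, so the count is no result about the list. Among 11 proteases that cut IGF binding proteins and their inhibitors, 3 were higher in basal cells. Pappa, the gene of the IGFBP4 protease PAPP-A, read 4.86 and 5.11 in luminal and 7.47 and 8.03 in basal arrays (-2.77 ± 0.22; limma adjusted p = 0.00316), with both luminal arrays below the background level, so that the size is not exact. Mmp2, a metalloproteinase gene, read 6.33 and 7.56 against 10.38 and 10.55 (-3.52 ± 0.39; limma adjusted p = 0.00594). Htra1, a serine protease gene, read 5.29 and 5.51 against 6.82 and 7.19 (-1.61 ± 0.17; limma adjusted p = 0.00548), with the same limit on its size.

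Stc2, the gene of stanniocalcin 2, an inhibitor of PAPP-A, was higher in luminal cells. It read 9.05 and 9.33 in luminal and 7.12 and 7.63 in basal arrays (1.82 ± 0.21; limma adjusted p = 0.00670). Pappa2 (-0.10) and Stc1 (-0.02) did not pass, and Pappa2 lay below the background level in every adult array. Of 6 other binding proteins and receptors, Lrp1, an endocytic receptor that also binds IGFBP3, was higher in basal cells, at 7.53 and 8.01 against 10.02 and 10.23 (-2.36 ± 0.19; limma adjusted p = 0.00333). Igfbp1, which is next to Igfbp3 on chromosome 11 in the RefSeq annotation, read 4.16 to 4.73 in the adult arrays, below the background level, and did not pass (0.08), nor did Igfals (0.62). Pappa, Mmp2, Htra1, Stc2 and Lrp1 were called with each adult array left out.

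Of 32 measured genes that act inside the cell 0 were called in limma, where 6.81% of all genes were, so a low count carries little. None of 18 adaptor and kinase genes changed (limma; 1 had an unadjusted p under 0.05; median difference 0.06, range -0.41 to 0.77), among them the receptor substrate genes Irs1 (-0.41) and Irs4 (0.26). None of 12 genes of FOXO, mTOR and other outputs changed (limma; 2 had an unadjusted p under 0.05; median 0.08, range -0.36 to 0.79), with Foxo1 at -0.30 and Foxo3 at 0.45. Neither of the 2 measured Igf2 mRNA binding genes changed in limma or had an unadjusted p under 0.05, with Igf2bp1 at -0.09 and Igf2bp3 at 0.12. Without basal replicate 2 Grb14 and Bad passed as well.

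**Figure D5:**
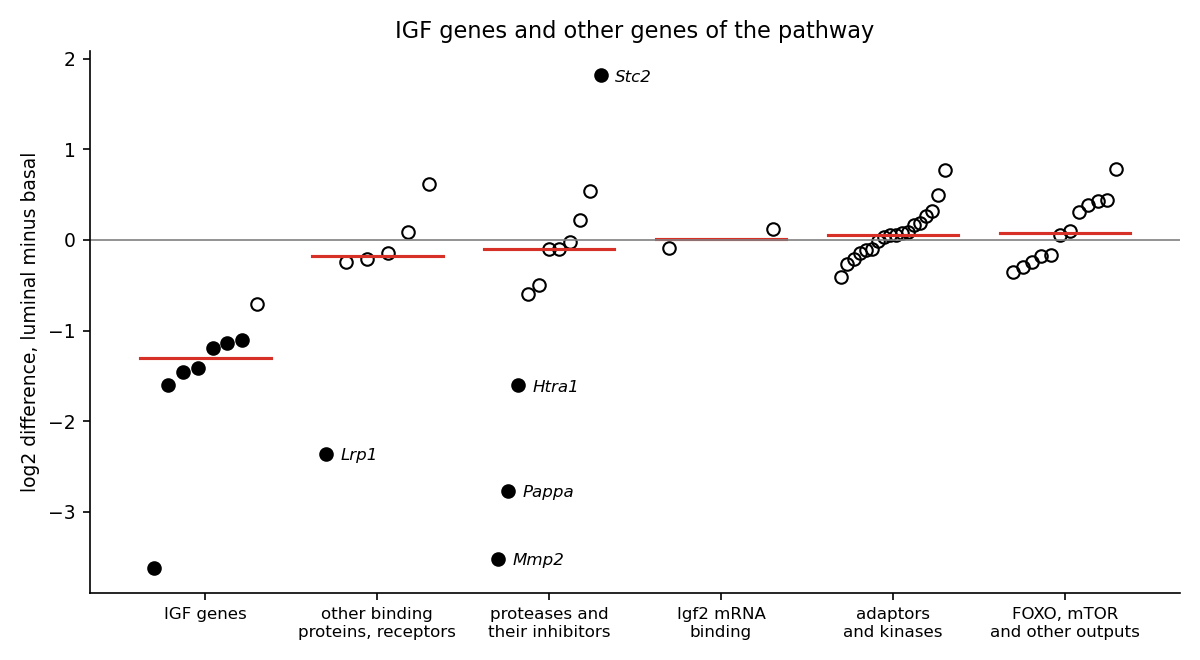
Log2 difference, luminal minus basal, of the 8 measured IGF genes and of 49 other pathway genes in 5 lists. Filled points changed, open points did not, and red bars are list medians; the IGF genes have a median of -1.30, and the other changed genes are Lrp1, Pappa, Mmp2, Htra1 and, on the luminal side, Stc2.

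Genes with the most similar levels over the 4 adult arrays were found for each changed member as those whose mean over these arrays lay above background and that had the smallest root mean square difference of centred log2 intensity. For Igfbp3 these were the chemokine gene Cxcl14 (0.07), Mmp2 (0.12) and Pdpn (0.14), the gene of podoplanin. For Igf2 they were Olfml3 (0.03), Mdk, the gene of the growth factor midkine (0.05), and Nt5e (0.05). For Igf1r they were Lbh, Zfp503 and Smarca2 (0.04 each). For Igf1 they were Lox, the lysyl oxidase gene (0.03), Hspb8 and Rgs16 (0.05 each), and for Igfbp4 Socs3 (0.06), Aqp1 and Jph2 (0.07 each). Igfbp2 and Igfbp6 shared Syt11 and Slc2a4, the gene of the insulin-responsive glucose transporter GLUT4, among their 3 nearest. Luminal levels of Lox, Nt5e, Syt11, Slc2a4 and Jph2 lay below or near the background level, as did those of Igfbp6, so nearness to them rests partly on unmeasured levels. With 4 arrays such nearness is a description of these arrays, and up to 7606 genes were candidates.

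Embryonic levels were given with no test, because the embryonic and adult columns of the table were not shown to be on a common scale. Over 45033 probe sets the embryonic mean minus the adult mean had an SD of 0.09, where luminal minus basal had 0.49. Per gene, the embryonic mean lay between the luminal and the basal mean for all 8 IGF genes and for 89.3% of all genes. It differed from the adult mean by 0.05 or less for Igf1, Igf2, Igf1r, Igfbp2 and Igfbp4, against a median of 0.02 in absolute value over all genes. Igfbp6 (-0.14), Igfbp5 (-0.25) and Igfbp3 (-0.79) lay further below it, and 95% of all genes lay within 0.24.

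The embryonic arrays differed from one another most in Igfbp3. Its SD of 1.02 was at the 99.9th percentile of all genes, a rank raised by the exact ties, described below, that lower the SD of other genes. Igfbp3 read 7.46, 7.34 and 9.15, with the array of 813 cells high. Lgr5 was also highest in that array, while the summed fibroblast (12.71, 12.60 and 12.23) and endothelial (9.68, 9.74 and 9.08) levels were lowest there. So were the adipocyte, leukocyte, erythroid and basal sums, but the pericyte sum was highest there (8.62, 8.77 and 9.23). Basal markers parted: Myh11 (7.49, 7.33 and 8.88) and Mylk (7.63, 7.40 and 8.82) were highest there and Krt14 (10.37, 10.93 and 9.71) lowest. The part of any cell type in the Igfbp3 level was not tested. Igfbp2 read 7.98, 7.31 and 6.83 (SD 0.57), and Igfbp6 read 5.48, 5.33 and 4.71 (SD 0.41). Igfbp5 read 10.23, 9.51 and 9.46 (SD 0.43), with replicate 1 high. By the probe sets used, the array of 813 cells was lowest for Igf2, Igfbp2, Igfbp5 and Igfbp6 and highest for Igf1r and Igfbp3. The second Igf2 probe set read 8.59, 8.34 and 8.65, with that array highest, so the direction for Igf2 depended on the probe set.

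By the probe sets used the remaining members varied less, and Igf1r was 1 of the genes whose probe sets parted. Igf1 read 7.27, 6.68 and 6.91, Igf2 read 9.34, 9.19 and 9.01, and Igfbp4 read 9.96, 9.61 and 9.84 in the embryonic arrays. The other Igf1 probe sets lay below the background level and were highest in the array of 813 cells, 1 of them at 3.75, 3.38 and 5.13. Igf1r read 7.49, 7.37 and 7.91 by its brightest probe set. A second Igf1r probe set read 7.76, 7.76 and 6.88, with the array of 813 cells low and not high, and another read 7.42 in all 3 arrays. Of 20 probe sets of the members 3, all of Igf1r, had exactly equal values in at least 2 embryonic arrays. Such ties made up 37.6% of all probe sets between embryonic replicates 1 and 2 and at most 94 probe sets between a pair of adult arrays. An exact tie lowers the SD of a gene over these 3 arrays.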

How the data were processed

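The deposited table held probe set intensities on a linear scale, summarised by the authors; per the submitters' processing notes RMA and affy were used, their settings being not given in the sources used here. Protocol text of adult samples repeats the embryonic one. Of 45141 rows, 4 empty ones and 104 Affymetrix controls were dropped. Platform annotation gave 1 symbol for 28895 of the remaining 45033 probe sets, several for 551 and none here for 15587. Log2 was taken, with no filter on low values. Limma 3.58.1 (R 4.3.3) fitted luminal and basal means to the 4 adult arrays (eBayes; 2 residual and 3.73 prior degrees of freedom), adjusting over 17096 genes. Embryonic arrays were kept out for their ties, and a fit over all 7 is an alternative, beside a replicate block, left-out arrays, probe set choice, a background filter, quantile or median scaling, the variance prior and the fold minimum. Background was set at the 95th percentile of 96 probe sets for genes of other organs. On simulated data for luminal minus basal (17096 genes, 200 changed) the fit called 67% of genes changed by 1.5 and 86% of those changed by 3 (log2), with 4 false calls among 157. Members and lists were chosen with earlier results of these data known. Named were all measured members, per pathway list up to 4 changed genes per direction and at most 2 that did not pass, and the 3 nearest genes of each changed member. Figures used matplotlib 3.10.9.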

Additional observations from a re-analysis of the deposited data

How the results depend on the processing

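Of 95 member differences recomputed under other settings, 78 kept their direction and their side of the threshold, 17 kept their direction but no longer passed, and 0 reversed. Igfbp3 passed and Igfbp5 missed the p or the fold minimum under all 12 alternatives run for them. The count of changed members ran from 1 to 7 when an adult array was left out, against 7 with all; the lowest, 1, was without luminal replicate 1, and it was 3 without luminal replicate 2 and 4 without basal replicate 2. It was 5 in the fit over all 7 arrays, where Igfbp2 and Igfbp6 were lost. The count of all changed genes, 1165, ran from 519 to 1443 with an array left out and was 2879 with no fold minimum. The count of pathway genes ran from 5 to 7 with an array left out. Averaging probe sets ended the call of Igf1, and centring arrays on their medians that of Igfbp2 (limma adjusted p = 0.0501). With the replicate number as a block, 7 members and 1208 genes changed; deviations of same-numbered luminal and basal arrays correlated at r = 0.08 over 17096 genes, so the labels' numbers were not taken to pair the arrays. Only genes above the background level gave 6 changed members, since Igfbp6 was then not tested.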
